A study of Mus musculus with 26 samples.

Results

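Messenger RNAs of cortical projection neurons were examined in ribosome footprinting and RNA-Seq tables of dissected mouse striatum, as a check on how much neighbouring cortex the tissue held. The 7 genes were Slc17a7, Tbr1, Neurod6, Neurod2, Rorb, Cux2 and Mef2c. They were listed by symbol as markers of a cell type, with earlier results of these data known, so their changes are given as description and no test was made of them. They are 7 of the 9602 distinct transcripts of the series. Each table of a transgenic line (GS LRRK2 TG or GS/DA LRRK2 TG) lists 5 of them among 8576 transcripts, without Neurod2 and Rorb, and the LRRK2 KO table lists all 7 among 9561.

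The striatum receives the axons of cortical glutamatergic neurons, but the cell bodies of those neurons, and most of their messenger RNA, lie in the cortex and the white matter border above it. A transcript made in those cell bodies and hardly at all in the striatum is therefore used to follow cortical tissue in a striatal dissection. Other lists mark further cell types and regions in the same way, and a gene on a list can be made at a lower level elsewhere.

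The series compared mice carrying human LRRK2 transgenes, and mice lacking Lrrk2, with their controls, to ask how the kinase alters translation in the brain. GS is the G2019S form of LRRK2, and GS/DA carries G2019S together with D1994A, which removes kinase activity. Both transgenes were under tetracycline control of CaMKII-tTA, which is active in forebrain neurons, and were switched on by withdrawing doxycycline. The tissue was striatum of C57BL/6 mice of 3 months, and a library came from pooled mice.

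The labels name 26 libraries. Non-transgenic littermates (non-TG control) had 3 footprinting and 3 RNA-Seq libraries, and each transgenic genotype had 2 footprinting and 2 RNA-Seq libraries. WT and LRRK2 KO each had 3 footprinting and 2 RNA-Seq libraries, and each had 1 more footprinting library from ventral midbrain. The deposited tables give the mean of a group, not the libraries. In 10 of 12 columns of means the reads of 2 libraries were recovered from the means themselves, and they are called the deeper and the shallower library by their total reads. The control columns of the GS table could not be resolved, so that group has a mean and no spread. Recovered footprinting libraries of the transgenic tables held 6790364 to 16095001 reads in coding sequences and RNA-Seq libraries 8505287 to 14277360. In the KO table the ranges were 2863332 to 6002138 and 3131554 to 10680954.

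Libraries of 1 group differed from each other in a way that depended on the assay. The SD, across transcripts, of the log2 ratio of the libraries was 0.34 for GS/DA and 0.40 for its control in footprinting, but 1.75 and 1.49 in RNA-Seq. It was 0.48 in footprinting and 1.77 in RNA-Seq for GS. In the KO table it was 0.94 for WT and 0.88 for KO in footprinting, and 0.81 and 0.76 in RNA-Seq. Single-gene RNA-Seq differences between libraries of the transgenic tables therefore carry little precision, and group means of RNA-Seq average over libraries that lie far apart. The difference between the control libraries was shared by the libraries of the other group, with a Spearman rho across transcripts, which are not independent replicates, of 0.74 in GS/DA footprinting and 0.76 in KO footprinting. For RNA-Seq it was −0.98 in GS/DA, where the deeper control library matched the shallower GS/DA library, and 0.69 in KO. Libraries were paired by this likeness where a change within pairs is given. The difference between the control libraries also went with the GC content of the coding sequence, with a rho across transcripts of −0.78 in GS/DA RNA-Seq, −0.43 in GS/DA footprinting, 0.54 in KO footprinting and −0.04 in KO RNA-Seq. Its part in the members' values was not tested beyond a correction of the changes by GC content. The labels carry no batch, and whether these pairs were prepared together is not known.

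Lrrk2, which encodes the kinase itself, followed the genotype in footprinting. Its mean was 2524 normalized reads in the control and 5186 in GS, 2.06-fold higher and the largest footprint increase of that table. Its GS libraries, at 3320 and 7052, were both above that control mean, and the size of the increase depended on the library used. In GS/DA it was 4.51-fold higher, 6017 against 1335, with both GS/DA libraries (7267 and 4766) above both control libraries (1445 and 1224). In RNA-Seq its mean was not higher in either transgenic group, with log2 changes of −0.16 in GS and −0.09 in GS/DA. Those means average distant libraries, 3550 and 214 in GS against a control mean of 2105, and 404 and 5038 in GS/DA against 5233 and 560.2 in the control, so the direction in GS turned with the library used. In the KO its footprints were lower by 2.12 and its RNA by 1.54 on the log2 scale. All recovered KO libraries lay below all WT libraries in both assays. Reads were aligned to the mouse genome, and how fully those of the human transgenes were counted in each assay was not tested.

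Abundant striatal transcripts showed what tissue the libraries came from. Levels of different genes are compared per kb of coding sequence, except where the gene with the most reads of a list is named, and each table was normalized separately. Ppp1r1b, which encodes the dopamine-regulated phosphatase inhibitor of striatal projection neurons, had 72007 footprint reads per kb in the control of the GS/DA table, at percentile 99.8 of the transcripts. Penk, the enkephalin precursor of indirect-pathway neurons, had 42579. In the same control Slc17a7, the vesicular glutamate transporter of cortical neurons, had 495 per kb, at percentile 50.6. In the KO table, where striatal transcripts were a smaller part of the reads, Ppp1r1b had 15453 per kb in WT and Slc17a7 749, at percentile 89.5.

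The members spanned a wide range of levels. Mef2c, a transcription factor of activity-dependent synapse control that striatal and other neurons also make, had the highest level of the listed members in each table, 1847 footprint reads per kb in the control of the GS/DA table. Tbr1, a T-box factor that specifies deep-layer cortical neurons, had 191, and Neurod6, a basic helix-loop-helix factor of cortical pyramidal cells, had 118. These neighbours overlapped between control libraries, since Tbr1 had 141 per kb in the shallower library and Neurod6 143 in the deeper. Cux2, a homeobox factor of upper layers, was lowest at 40.8, and at percentile 0.732 of the transcripts. Neurod2, a relative of Neurod6, and Rorb, a nuclear receptor of layer 4 neurons, had 92.0 and 81.5 per kb in WT of the KO table, and their library ranges overlapped.

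The transcripts are uc009gtx.2 for Slc17a7, uc008jvd.1 for Tbr1, uc009cav.2 for Neurod6, uc009vai.1 for Neurod2, uc008gyc.1 for Rorb, uc008zkl.1 for Cux2 and uc007rie.2 for Mef2c. On the mm9 build the genes lie at chr7:52419291-52431508 (Slc17a7), chr2:61640987-61652171 (Tbr1) and chr6:55627812-55631257 (Neurod6). Neurod2 lies at chr11:98186729-98190962, Rorb at chr19:19005095-19185686, Cux2 at chr5:122308396-122500111 and Mef2c at chr13:83643033-83806684.

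Translational efficiency (TE, footprints over RNA-Seq) in the controls was computed from group means and varied between members. In the control of the GS/DA table the log2 TE of Mef2c was 1.36 and that of Tbr1 was 1.15, at percentiles 96.0 and 93.1. Slc17a7 had −0.46 and Cux2 −0.74, at percentiles 26.5 and 17.8. These values average RNA-Seq control libraries that lay far apart, at 547 and 1740 for Slc17a7, 115 and 468 for Cux2 and 1545 and 501 for Mef2c, so the order of the members depended on which library was used. In the WT of the KO table Mef2c and Tbr1 were again highest of the members, at percentiles 99.2 and 98.7, and Cux2 lowest, at 8.98. The predicted folding energy of the 5′UTR was −174.1 kcal/mol for Mef2c, −80.43 for Tbr1, −153.6 for Slc17a7 and −161.5 for Cux2. Neurod6, with a log2 TE of −0.01 in the control of the GS/DA table, had −89.61. Among the members of that table only Mef2c departed from the TE order. In the KO table Neurod2 (−65.17) and Rorb (−164.97) departed from it as well.

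The GS/DA comparison, which asks what the transgene does without kinase activity, gave the largest changes of the members. Their median log2 change was 1.05 in footprints and 1.03 in RNA-Seq, against −0.01 and 0.06 for all transcripts. A log2 change of at least 0.5 was reached by 3 of 5 in footprinting, where 0.4897% of transcripts were that much higher, and by the same 3 in RNA-Seq, where 2.46% were. These were Slc17a7, Tbr1 and Neurod6. None of the 5 was that much lower in either assay, against 0.326% of transcripts in footprinting and 0.257% in RNA-Seq. The median TE difference was 0.03, and 0 of 5 members reached a TE difference of 0.5 in either direction, where 0.06996% of transcripts were that much higher and 2.31% lower. Footprints and RNA were thus higher together, in near equal measure.

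Tbr1 had the 3rd largest footprint increase of 8576 transcripts, from 390 to 1044 normalized reads, 2.68-fold (log2 1.42). Slc17a7 ranked 4th with 833 in the control and 2047 in GS/DA, 2.46-fold (1.30). Neurod6 ranked 7th, 2.08-fold higher (1.05). Lrrk2 itself ranked 1st, and the 2nd was Zbtb16, a zinc-finger gene chosen after its values were seen. In RNA-Seq Tbr1, Slc17a7 and Neurod6 ranked 2nd, 3rd and 5th, with log2 changes of 1.21, 1.17 and 1.03. Cux2 and Mef2c, the members of lowest and highest level per kb, stood apart from those 3, with footprint changes of 0.28 and 0.27 and RNA-Seq changes of 0.37 and 0.43.

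**Figure D1:**
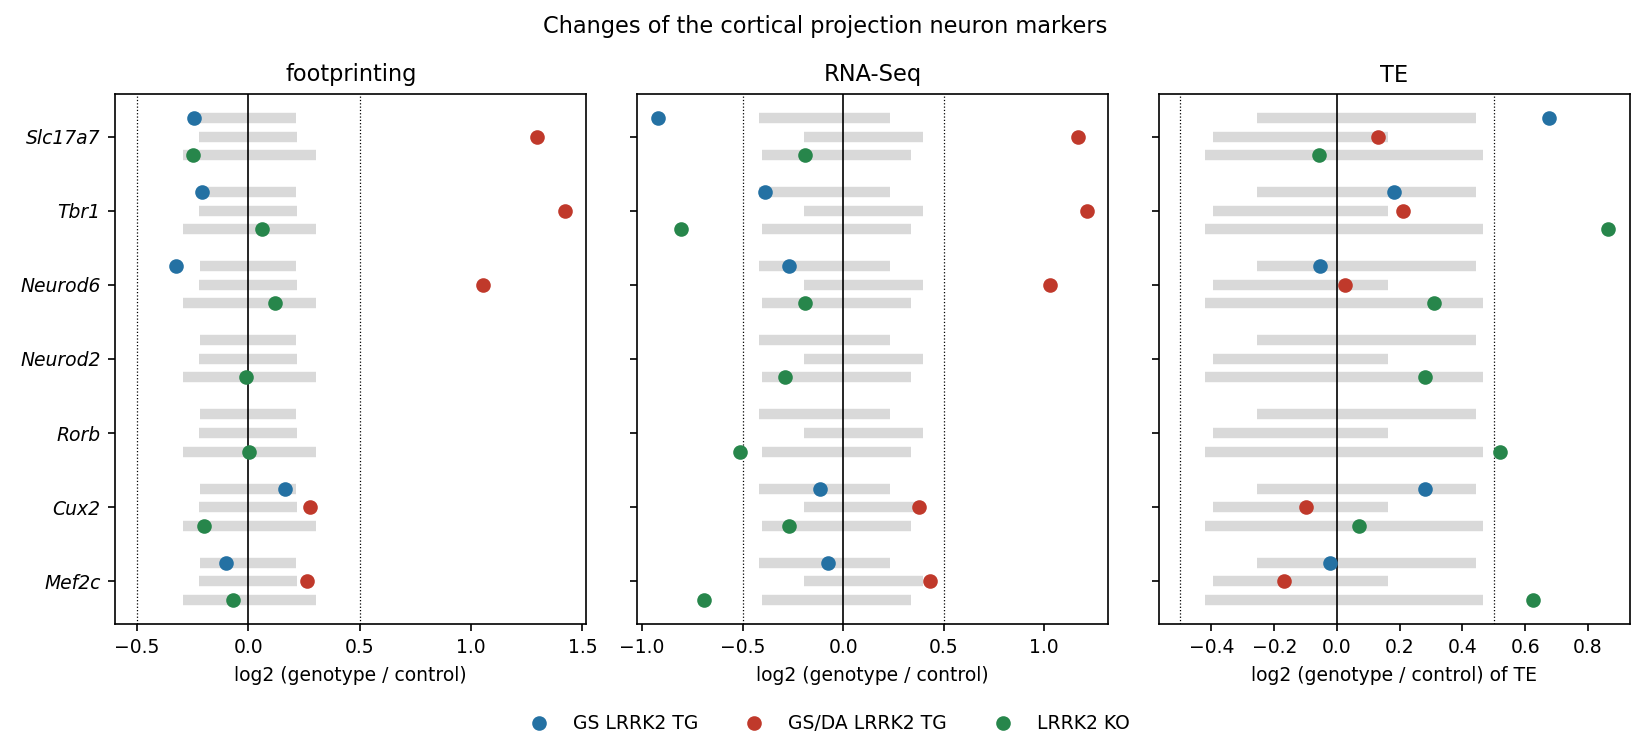
Log2 change of each member (vertical axis) in footprinting, RNA-Seq and TE for GS LRRK2 TG (blue), GS/DA LRRK2 TG (red) and LRRK2 KO (green) against their controls, from group means. Grey bars span percentiles 5 to 95 of all transcripts of that table, dotted lines mark 0.5 in either direction, and the red points of Slc17a7, Tbr1 and Neurod6 lie at 1.03 to 1.42 in footprinting and RNA-Seq.

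The recovered GS/DA footprinting libraries stood above the control for each listed member. All 5 of 5 had both GS/DA libraries above both control libraries, where 11.97% of resolved transcripts did and 12.2% had the reverse order. Slc17a7 had 994 and 673 normalized reads in the control libraries and 2516 and 1577 in GS/DA, deeper library first. Tbr1 had 491 and 289 against 1321 and 768. Without the deeper control library the changes of Slc17a7, Tbr1 and Neurod6 were 1.61, 1.85 and 1.40, and without the deeper GS/DA library they were 0.92, 0.98 and 0.94. The 3 stayed at 0.78 or more without any 1 footprinting library. Within pairs of libraries Slc17a7 changed by 1.34 and 1.23, Tbr1 by 1.43 and 1.41 and Neurod6 by 0.88 and 1.28. These 3 of 5 passed 0.5 in both pairs, where 0.2504% of resolved transcripts did, and none passed −0.5 in both, where 0.107% did. For Cux2 the pairs gave 0.51 and 0.04, and for Mef2c 0.39 and 0.14, so their excess was smaller than the spread between pairs or close to it.

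In RNA-Seq only Tbr1 of the 5 had both GS/DA libraries above both control libraries, where 1.79% of resolved transcripts did, and none had the reverse order, which 1.57% had. The other 4 overlapped, as most transcripts did in these widely spaced libraries. Slc17a7 had 547 and 1740 in the control libraries and 3592 and 1544 in GS/DA, so the shallower control library exceeded the shallower GS/DA library. Without the deeper GS/DA library its change was 0.43, and without the shallower control library it was 2.23. Neurod6 had 176 and 63.8 against 118 and 371, and without the shallower GS/DA library its change was −0.02. Without the shallower control library Neurod6 changed by 0.47. Tbr1 stayed between 0.87 and 1.49 without any 1 RNA-Seq library. Within the pairs that share the library difference, the changes were 1.50 and 1.05 for Slc17a7, 1.37 and 1.00 for Tbr1 and 1.08 and 0.89 for Neurod6. The same 3 of 5 passed 0.5 in both pairs, where 0.166% of resolved transcripts did, and none passed −0.5, where 0.1302% did. The pairs gave Cux2 0.72 and 0.27 and Mef2c 0.61 and −0.29. Without 1 RNA-Seq library the change of Cux2 ran from −0.62 (deeper GS/DA library left out) to 1.71 (shallower control), and that of Mef2c from −1.32 (shallower GS/DA) to 1.46 (deeper control).

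The near absence of a TE change in GS/DA held for group means, but not without single RNA-Seq libraries. Without the shallower control RNA-Seq library the TE difference of Slc17a7 was −0.93, and without the deeper GS/DA RNA-Seq library it was 0.86. For Neurod6 it was −0.88 without the deeper control RNA-Seq library and 1.08 without the shallower GS/DA RNA-Seq library. Mef2c reached 1.58 without that same GS/DA library. The TE of a single member is thus no more precise than the RNA-Seq libraries behind it. Within library pairs of both assays the TE difference of Slc17a7 ran from −0.27 to 0.29. That of Tbr1 ran from 0.04 to 0.43 and that of Neurod6 from −0.19 to 0.40, so these members stayed under 0.5. For Cux2 the pairs gave −0.69 to 0.24 and for Mef2c −0.46 to 0.68.

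**Figure D2:**
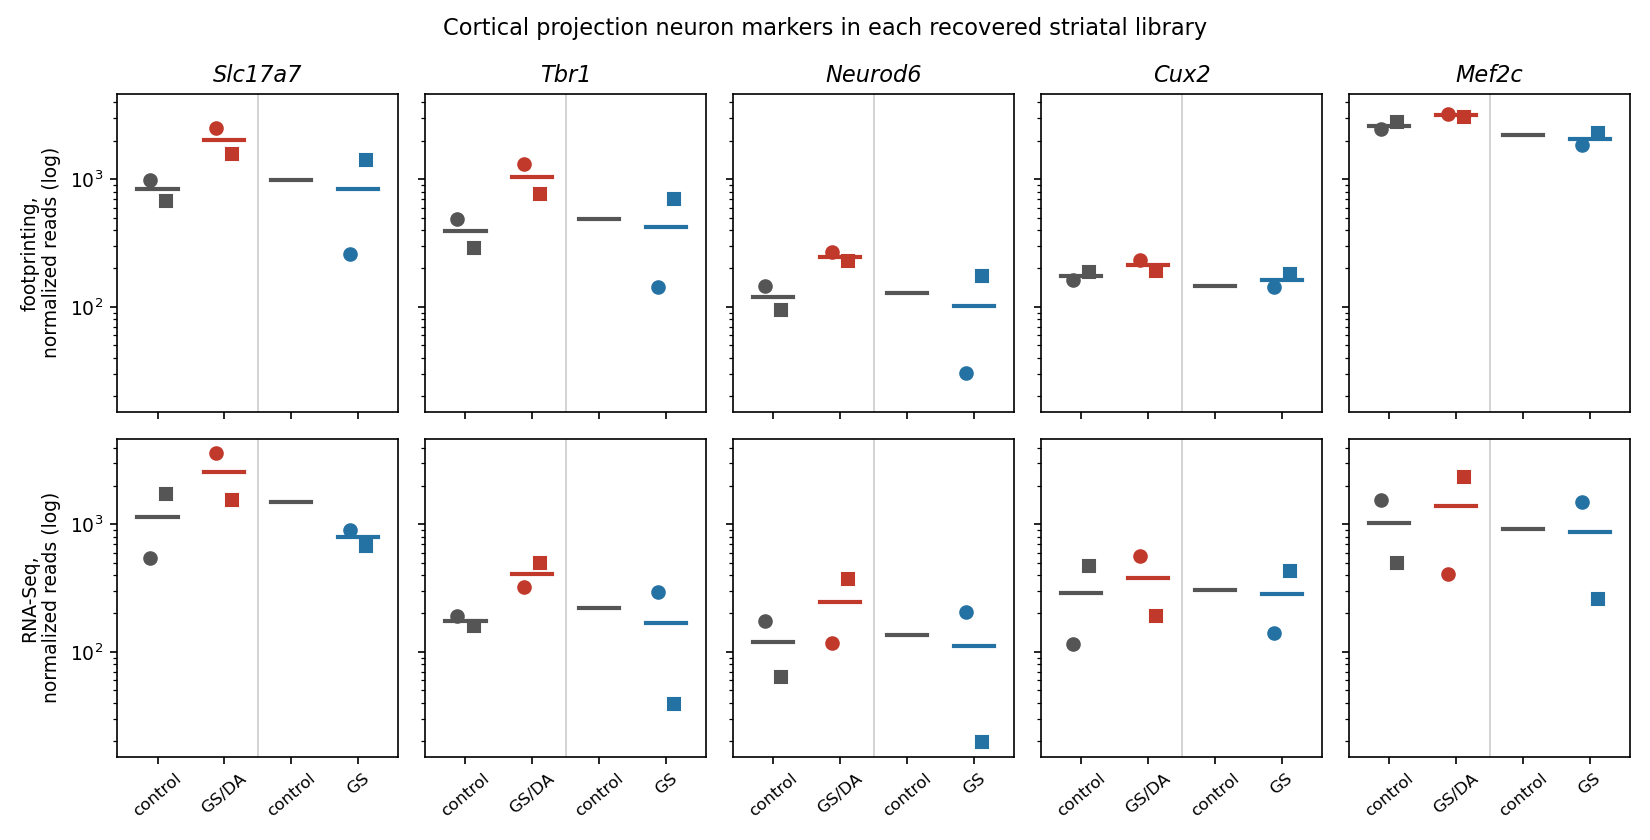
Normalized reads (log axis) of the 5 members listed in both transgenic tables, in control and genotype groups (GS/DA table left, GS table right), footprinting above and RNA-Seq below, with circles for the deeper recovered library, squares for the shallower and a line at the group mean; the control of the GS table has a mean only. In GS footprinting the 2 libraries of Slc17a7 lie at 258 and 1425, on either side of the control mean of 995.

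The GS comparison asks what the transgene with an active kinase does. Among footprints 0 of 5 members reached 0.5 in either direction, where 0.1399% of transcripts were that much higher and 0.198% lower, and their median was −0.21 against 0.00 for all transcripts. In RNA-Seq 1 of 5 was that much lower, where 2.72% of transcripts were, and none was higher, where 0.233% were. That gene was Slc17a7, with 1496 in the control and 792 in GS (log2 −0.92), the 9th lowest of the table. Its footprints differed by −0.24, so its TE was higher by 0.68, and it was the 1 of 5 members at or past 0.5 in TE, where 3.32% of transcripts were higher and 0.257% lower. The RNA-Seq change of Slc17a7 was −1.15 without the deeper and −0.72 without the shallower GS library. The other members had footprint changes from −0.32 (Neurod6) to 0.17 (Cux2).

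These GS footprint means averaged libraries that differed widely in the members. Slc17a7 had 258 normalized footprint reads in the deeper GS library and 1425 in the shallower, 5.53-fold apart. Tbr1 had 143 and 703, 4.92-fold apart, and Neurod6 30.4 and 174, 5.73-fold apart. Among 8565 resolved transcripts these 3 ranked 8th, 9th and 10th by excess in the shallower library, and 0.665% of transcripts had an excess of at least 1 on the log2 scale. Cux2, at 144 and 182, and Mef2c, at 1843 and 2318, differed little. Each choice of library therefore gave another direction. Without the deeper GS library the footprint changes of Slc17a7, Tbr1 and Neurod6 were 0.52, 0.53 and 0.44, and without the shallower they were −1.95, −1.77 and −2.07. The TE difference of Slc17a7 was 1.44 without the deeper footprinting library and −1.03 without the shallower. No control library could be resolved here, so whether the controls of this table were split in the same way is not known. The control footprinting libraries recovered for GS/DA differed less in the members, with a median log2 excess of −0.56 in the shallower library. There 0 of 5 members were at least 1 apart, where 0.119% of transcripts were that much higher in the shallower library and 0.286% in the deeper. Which control samples entered each mean is not known.

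Some other genes of the lists shared that split of the GS footprinting libraries. Cck, a neuropeptide gene of cortical neurons, had 165 in the deeper and 706 in the shallower library. It was 1 of 2 among 10 other cortical markers with an excess of at least 1 (log2) in the shallower library, and the median of the 10 was 0.43. Nr4a2, a nuclear receptor gene of claustrum and deep-layer cells, had 75.3 and 274, but the summed level of its list of 3 was 2659.5 and 2656.0. Genes of other lists did as well. The median excess of the 6 microglia markers was 0.50, with summed levels of 3349.5 and 5100.04, that of Prkcd, a thalamic marker, was 1.02, and 1 interneuron (Pvalb) and 1 choroid plexus marker (Ttr) passed 1. Striatal genes went the other way, with Penk at 27036 and 16568 and Drd1a, the D1 dopamine receptor gene, at 2708 and 1655. The summed level of the 5 members was 2418 in the deeper and 4802 in the shallower library, against a control mean of 3984. The summed level of the 22 striatal markers listed was 185055 and 136502. Their part in the result was not tested.

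In GS RNA-Seq the libraries differed by more, and for most transcripts. Tbr1 had 296 in the deeper and 39.2 in the shallower library, and Neurod6 204 and 19.6. Without the deeper library their RNA-Seq changes were −2.48 and −2.78, and without the shallower 0.43 and 0.60. The same choices gave −1.81 and 0.69 for Mef2c and 0.48 and −1.14 for Cux2. The TE difference of Tbr1 was 2.28 without the deeper RNA-Seq library and −1.39 without the shallower footprinting library. As 27.0% of transcripts were at least 1 higher (log2) in the shallower library and 28.8% in the deeper, such a gap was common in this assay.

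The GS and GS/DA comparisons share non-TG control samples, so no correlation or overlap between them was computed and their values are given side by side. The footprint changes were −0.24 in GS and 1.30 in GS/DA for Slc17a7, −0.21 and 1.42 for Tbr1, and −0.32 and 1.05 for Neurod6. For Cux2 they were 0.17 and 0.28, and for Mef2c −0.10 and 0.27.

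The KO comparison, which asks what the loss of the kinase does, showed little change of the members in footprints. The median footprint change of the 7 was −0.01, and 0 of 7 reached 0.5 in either direction, where 1.004% of transcripts were that much higher and 1.07% lower. All 7 had overlapping KO and WT footprinting libraries, where 6.21% of resolved transcripts had KO above WT and 6.396% below. Changes ran from −0.25 for Slc17a7 (1260.3 in WT and 1062 in KO) to 0.12 for Neurod6. None passed 0.5 in both library pairs, where 0.115% of transcripts were that much higher and 0.157% lower. Slc17a7 had 1773 and 747 in the WT libraries and 1393 and 730.2 in KO. Without the deeper WT library its change was 0.51, and without the shallower it was −0.74. Without the deeper KO library it was −0.79. Cux2 changed by −0.62 without the shallower WT library and by −0.61 without the shallower KO library.

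In RNA-Seq, 3 of 7 members were at least 0.5 lower in KO, where 2.51% of transcripts were, and none was that much higher, where 0.669% were. The median of the 7 was −0.29, against 0.01 for all transcripts. Tbr1 changed by −0.80, Mef2c by −0.69 and Rorb by −0.52. As their footprints differed little, the same 3 had a TE that was at least 0.5 higher, by 0.87, 0.62 and 0.52, where 4.06% of transcripts were. None was that much lower, where 2.75% were. In group means the values of Tbr1 and Mef2c rested on 1 WT library. Tbr1 had 244 and 660 reads in the deeper and shallower WT libraries, and without the shallower its RNA-Seq change was 0.08 and its TE difference −0.02. Mef2c had 658 and 1538, and without the same library these values were 0.05 and −0.12. Without the deeper KO library the RNA-Seq change of Tbr1 was −0.49. Within library pairs, deeper first, the RNA-Seq change was −0.31 and −1.04 for Tbr1 and −0.13 and −1.07 for Rorb. Slc17a7 (−0.42 and −0.08), Neurod6 (−0.05 and −0.30) and Neurod2 (−0.31 and −0.27) were also lower in both pairs. Mef2c (0.13 and −1.27) and Cux2 (0.06 and −0.70) differed in sign between pairs. The TE difference of Tbr1 within pairs ran from 0.11 to 1.33.

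Rorb was the 1 of 7 members with both KO RNA-Seq libraries below both WT libraries, where 7.02% of resolved transcripts were. None had the reverse order, which 7.03% had, and the other 6 overlapped. In both library pairs 0 of 7 were at least 0.5 lower, where 0.115% of transcripts were, or higher, where 0.0524% were. It had 171 and 164 in WT and 156 and 78.1 in KO. Without the shallower KO library its RNA-Seq change was −0.10 and its TE difference 0.10, and without the deeper KO library they were −1.10 and 1.11. Rorb thus owed most of its RNA-Seq change to 1 KO library. Without the deeper WT RNA-Seq library it had a change of −0.48 and a TE difference of 0.49. Slc17a7 also passed 0.5 without 1 library, at −0.56 without the deeper WT and −0.92 without the shallower KO library, but it was 0.32 without the shallower WT and 0.29 without the deeper KO library. Cux2 did so at −0.71 without the deeper KO library. TE differences of other members also passed 0.5 without the deeper WT footprinting library, at 0.70 for Slc17a7, 0.67 for Cux2 and 0.57 for Neurod2, and Neurod6 reached 0.63 without the shallower. That of Slc17a7 had the other sign without the shallower WT footprinting library (−0.55), the deeper KO footprinting library (−0.60), the shallower WT RNA-Seq library (−0.56) or the deeper KO RNA-Seq library (−0.54).

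Further cortical genes shared part of the GS/DA pattern. Of a second list of 20 cortical glutamatergic markers the transgenic tables list 10, and Fezf2 and Emx1 are among those not listed. The median footprint change of the 10 in GS/DA was 0.08. None was at least 0.5 lower, where 0.326% of transcripts were in footprints and 0.257% in RNA-Seq. In footprints 2 of 10 were that much higher, where 0.4897% of transcripts were, and in RNA-Seq 2 were, where 2.46% were. These were Cck (1.09 in footprints) and Nptx1, a neuronal pentraxin gene (0.89). Cck had 571 and 343 footprint reads in the control libraries and 1317 and 635 in GS/DA. Nptx1 had 847 and 472 against 1450 and 1001. Vsnl1, the calcium sensor gene with the most reads of this list, changed by 0.43. The summed footprint level of the 10 was 19922 and 18057 in the control libraries and 23544 and 19780 in GS/DA. That of the 5 members was 4261 and 4037 in the control and 7576 and 5852 in GS/DA, where Mef2c had the most reads. In GS 0 of these 10 passed 0.5 in footprints or RNA-Seq, with a median of −0.05. Their part in the result was not tested.

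Of the 20, the KO table lists 16. None was at least 0.5 higher in footprints, where 1.004% of transcripts were. That much lower were 2, where 1.07% of transcripts were, Slc30a3, a vesicular zinc transporter gene, at −0.82 and Cck at −0.52. Both were highest in the deeper WT library, with 150 and 32.0 in WT and 73.3 and 29.4 in KO for Slc30a3, and 977 and 296 against 579 and 309 for Cck. In RNA-Seq 7 of 16 were that much lower, where 2.51% of transcripts were, and none higher, where 0.669% were, with Ctgf lowest at −1.10. In TE none was that much lower, where 2.75% of transcripts were, and 5 were higher, where 4.06% were. These 5 were Vsnl1 at 0.50 and 4 genes chosen after their values were seen, Ctgf (1.00), Rasgrf2 (0.67), Fezf2 (0.53) and Sv2b (0.53). The medians of the 16 were −0.02 in footprints and −0.36 in RNA-Seq, close to those of the members. The summed RNA-Seq level of the members was 3723 and 6686 in the WT libraries and 3228 and 4941 in KO, and that of the 16 was 6961 and 12115 against 6822 and 8652. In both lists the shallower WT library was the highest. So it was for the interneuron markers, at 6125 and 11545 in WT and 6510 and 8979 in KO. The astrocyte (4696 and 7061 against 4434 and 4638) and red blood cell markers (6039 and 9093 against 6047 and 6883) shared this, and the other lists did not. The part of that library in the result was not tested.

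Striatal projection neuron markers were mostly slightly lower in the footprint means of both transgenic groups. Of 25 on the list 22 were listed in each table, and their median footprint change was −0.20 in GS/DA, −0.10 in GS and 0.09 in KO. Below 0 were 21 of 22 in GS/DA, where 4501 of 8576 transcripts were, and 20 of 22 in GS, where 4182 were. In GS/DA 2 were at least 0.5 lower, where 0.326% of transcripts were, Penk (−0.53) and Drd1a (−0.50). Drd1a had 3208 and 4126 reads in the control libraries and 2066 and 3119 in GS/DA. Their summed mean footprint level was 231193 in the control and 191493 in GS/DA, and Ppp1r1b had the most reads. In GS the sum was 185055 in the deeper and 136502 in the shallower library against a control mean of 173860, so the lower GS sum rested on the shallower library. None passed 0.5 in footprints in GS or KO. In RNA-Seq 1 of 22 was that much lower in GS, where 2.72% of transcripts were, and none in GS/DA or KO. It was Ebf1, chosen after its values were seen, at −0.57.

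Of claustrum and deep layer markers 3 of 4 were listed in each table, and Nr4a2 was the gene that moved. Its footprint change was 1.00 in GS/DA, −0.77 in GS and 0.66 in KO. Its RNA-Seq changes were 0.98, −0.72 and −0.00. Both GS footprinting libraries of Nr4a2, given above, lay below the control mean of 298. The size of its GS footprint change depended on the library used. In GS/DA its footprint libraries stood at 357 and 217 in the control and 705 and 445 in GS/DA. Synpr, with the most reads of these, changed by −0.09, −0.03 and 0.20. The summed footprint level of the 3 was 3569 and 3580 in the control libraries of the GS/DA table and 3736 and 3835 in GS/DA.

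Further lists covered other regions and cell types. Of 4 thalamic markers the transgenic tables list 1, Prkcd, a protein kinase C gene, which changed by 0.61 in GS footprints, 0.14 in GS/DA and 1.11 in KO. In GS its libraries stood at 126 and 265 against a control mean of 127.6, so the higher footprint mean rested on the shallower library. Its GS RNA-Seq change was 0.71, with both libraries (310 and 234) above the control mean of 167. In the KO table it had few reads, with means of 26.9 in WT and 58.0 in KO, and Tcf7l2, the other thalamic gene listed there, changed by 0.29. Of 3 septal markers 1 was listed in each transgenic table and 2 in the KO table, and 0 passed 0.5 in footprints or RNA-Seq. Among 9 of 10 interneuron markers and 9 of 9 oligodendrocyte markers 0 passed 0.5 in footprints or RNA-Seq of any comparison. The same held for 7 of 7 astrocyte markers, except Slc1a2 in KO RNA-Seq (−0.67). The microglia list had 6 of 8 listed in the transgenic tables and 7 in the KO table. Of these C1qa (0.54) and C1qb (0.73, chosen after its values were seen) were at least 0.5 higher in KO RNA-Seq, where 0.669% of transcripts were. In the other footprint or RNA-Seq changes 0 passed 0.5. The 1 of 4 endothelial markers listed, Slc2a1, did not pass 0.5 in either assay.

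Choroid plexus and blood markers also differed between groups. Of 7 choroid plexus markers 3 were listed in each table, and Ttr, which encodes transthyretin, changed by −2.45 in GS footprints, −1.53 in GS/DA and 0.12 in KO. In RNA-Seq it changed by −1.89, −0.88 and −1.03, and Enpp2, a phospholipase gene, by −0.54 in GS. The Ttr footprint libraries were far apart, at 1193 and 17057 in the control of the GS/DA table and 5162 and 1137 in GS/DA. Of 6 red blood cell markers 3 were listed in each table. All 3, the globin genes Hba-a2, Hbb-b1 and Beta-s, were at least 0.5 lower in KO footprints, where 1.07% of transcripts were. Their changes were −0.71 to −0.61, and 0 passed 0.5 in footprints or RNA-Seq of the transgenic tables. Their summed footprint level was 5375 and 1364 in the WT libraries and 2716 and 1537 in KO, so the lower KO values rested on the deeper WT library, without which the KO mean of 2126 stood against 1364. All 3 of each of these lists were below 0 in the footprints of GS and of GS/DA. In GS/DA the summed choroid plexus level was 5320 and 26078 in the control libraries and 10984 and 5495 in GS/DA, so the lower mean rested on the shallower control library. The part of these lists in the members' values was not tested.

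**Figure D3:**
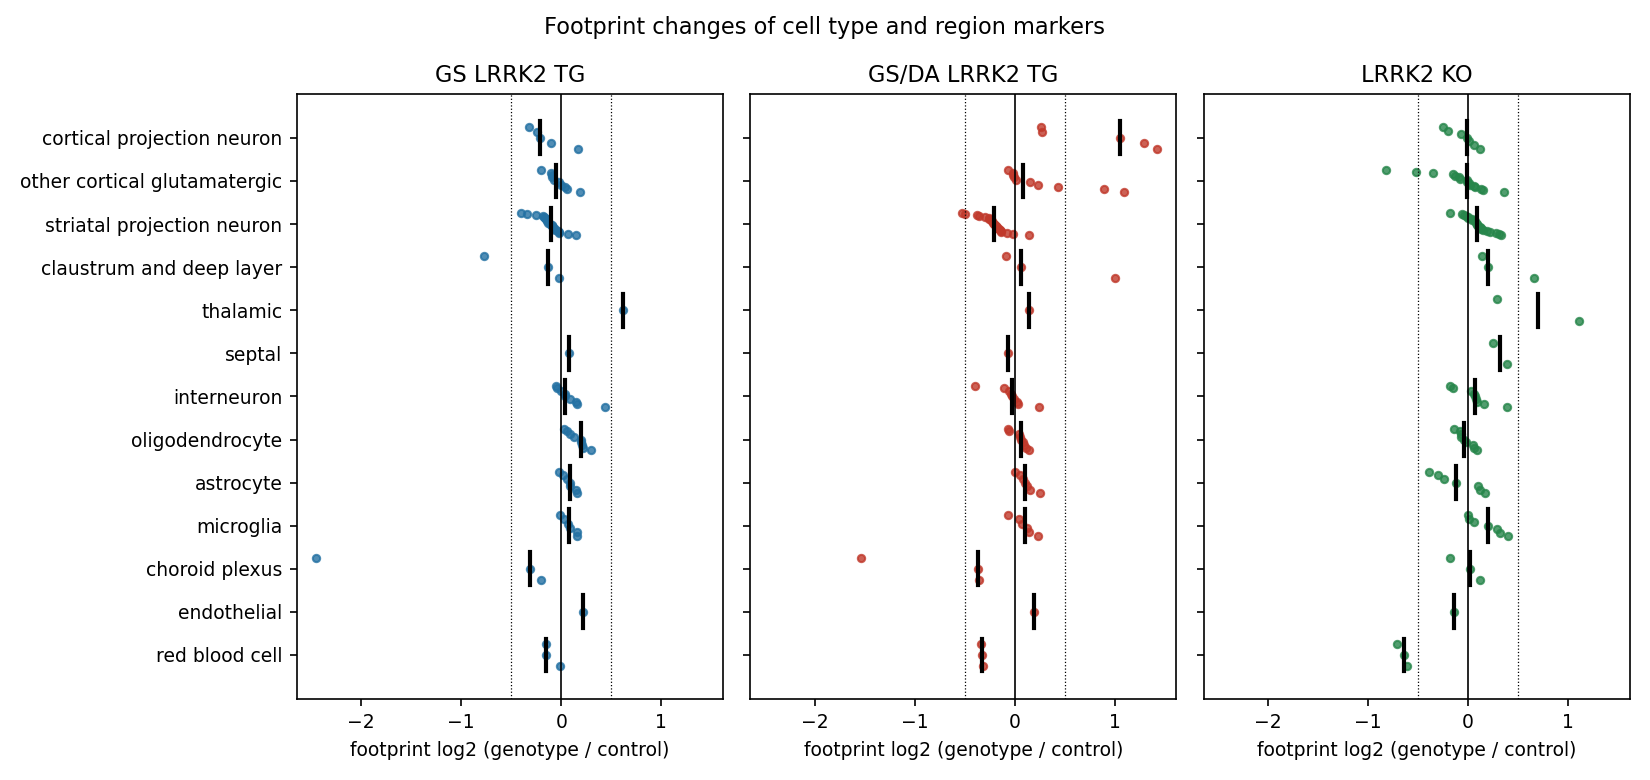
Log2 footprint change of each listed gene (points) in the cortical, striatal and other marker lists (vertical axis) for the 3 comparisons, from group means, with a bar at each list's median and dotted lines at 0.5 in either direction. In GS/DA the members' median lies at 1.05 and the striatal markers' median at −0.20.

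The transcripts with changes most like the members' median profile were sought among 1673 transcripts with group means of at least 500 throughout, by Euclidean distance over the 6 footprint and RNA-Seq log2 changes. The nearest 8 were Efhd2, Olfm1, Vsnl1, Oxr1, Sgsm1, Mical2, Pclo and Gprasp1, at distances from 0.79 to 1.07, where the median of all was 1.50. They were chosen by their values in these tables. The members themselves lay at 0.23 (Neurod6), 0.70 (Tbr1), 0.73 (Slc17a7), 1.10 (Mef2c) and 1.10 (Cux2). By footprint changes only, 5 of the nearest 8 were shared.

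All values come from bulk tissue, in which fewer cells of a type and less RNA per cell cannot be told apart. A pool is 1 sample however many mice it held.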

How the data were processed

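According to the submitters' processing notes, bases were called with CASAVA 1.8 and aligned to mm9 with TopHat2 2.0.11 and Bowtie2 2.2.2. Reads in coding sequences were counted per gene, genes with low read counts were left out, and DESeq 1.20 normalized them. The signal values used here are the means that the authors deposited, each the mean over a group of libraries of reads divided by a DESeq size factor, with each table normalized separately. The log2 TE columns were computed by the authors from those means and served as a check on the TE computed here. The folding energies of 5′UTRs, in kcal/mol, are those the authors deposited from the UCSC annotation. The deposited TE differences and z scores are the authors' own comparisons and were not used.

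A log2 change is the log2 ratio of 2 group means, and TE is the footprinting mean over the RNA-Seq mean. No pseudocount was added to these, and a pseudocount of 10 was added to each library where the libraries of a group were ranked or counted by their ratio. No test was made, because the members and the marker lists were chosen with earlier results of these data known. Changes of at least 0.5 (log2) were counted and set beside the share of all transcripts that reached it. Groups were also called apart where both recovered libraries of one lay beyond both of the other.

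A group mean of 2 libraries is a weighted sum of 2 whole numbers of reads, so the reads and weights were sought from the spacing of the means of a column. Columns were accepted in which nearly every transcript resolved to 1 pair of whole numbers. In 10 of 12 columns 97.9% to 99.97% of transcripts resolved, against 0.0628% to 3.10% after the means were shifted. The libraries were not matched to labelled samples, since the columns name none, and group means that hold 2 libraries leave out the third of the control, WT and KO groups, whose libraries were not analysed separately. The ventral midbrain libraries have no column. Coordinates and coding lengths came from the mm9 annotation by symbol, with the longest entry of a gene used, and 97.1% of transcripts in the transgenic tables and 97.0% in the KO table had a coding sequence, as did all members.

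With those earlier results of the series known, the rule for the genes named and the alternatives were set before the tables were opened here. The rule took the members, in each marker list up to 4 genes with the largest footprint change in any comparison and the gene with the highest mean, and the 8 transcripts nearest the members' median profile, and a gene named outside it is given as chosen after its values were seen. The lists were other cortical glutamatergic, striatal projection neuron, claustrum and deep layer, thalamic, septal, interneuron, oligodendrocyte, astrocyte, microglia, choroid plexus, endothelial and red blood cell markers. Calculations used Python 3.11.15, numpy 2.4.6, pandas 2.3.3 and scipy 1.17.1, and plots matplotlib 3.10.9.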

Additional observations from a re-analysis of the deposited data

Results flagged for a closer look

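Slc17a7 stood out among the members because its RNA-Seq changes in the transgenic groups had opposite signs in each recovered library. The log2 change was −0.92 in GS and 1.17 in GS/DA. Both GS libraries (910 and 674 normalized reads) lay below their control mean of 1496, and both GS/DA libraries (3592 and 1544) lay above theirs of 1144. The difference between the comparisons was not tested, and they share control samples. The shallower GS/DA library was also below 1 of its control libraries, at 1740, and the GS control libraries could not be resolved.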

How the results depend on the processing

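A pseudocount of 10, centring on the median of all transcripts, 1 transcript per symbol, a correction by coding GC content in 20 bins, means of log2 over recovered libraries and the authors' TE columns left every median and count of the members within the spread of the libraries or within 1.5 times the count. Over all alternatives 325 medians and counts of the members stayed so and 83 did not. That spread is wide where libraries lie far apart, so staying within it does not show that a value is stable. The GS footprint median, −0.21 in group means, counted as staying at both −1.77 and 0.44. Of the single values and list counts 693 stayed, 193 moved and 13 changed sign from a value of at least 0.5 in group means. Smaller values that changed sign are among the 693 and 193. At a fold of 0.25 the members past it were 1 lower in GS footprints, 3 lower in GS RNA-Seq, 2 higher in GS TE, 5 higher in GS/DA footprints, 5 higher in GS/DA RNA-Seq, 5 lower in KO RNA-Seq and 5 higher in KO TE. Of all transcripts 3.21, 14.98, 17.05, 3.67, 14.2, 13.4 and 18.1 percent passed it in the same order. At a fold of 1, 0 remained in GS RNA-Seq, GS TE, KO RNA-Seq and KO TE. With group means of at least 500 fewer members were left, the GS/DA medians were 0.78 in footprints and 0.80 in RNA-Seq, with 1 higher in each, and KO had 1 lower in RNA-Seq and 1 higher in TE. Without 1 library, or within a pair, the median footprint change ran from −1.77 to 0.44 in GS, 0.65 to 1.51 in GS/DA and −0.34 to 0.29 in KO. The RNA-Seq median ran from −1.81 to 0.43, 0.74 to 1.62 and −0.70 to 0.026, and the TE median from −1.03 to 1.72, −0.27 to 0.56 and −0.079 to 1.27, in the same order. Members past 0.5 higher then numbered 0 to 2 in GS, 3 to 4 in GS/DA and 0 to 1 in KO in footprints, 0 to 2, 3 to 5 and 0 to 1 in RNA-Seq, and 0 to 4, 0 to 3 and 0 to 5 in TE. Those past it lower numbered 0 to 3, 0 and 0 to 2 in footprints, 2 to 4, 0 to 2 and 0 to 4 in RNA-Seq, and 0 to 3, 0 to 2 and 0 to 1 in TE. Single values of at least 0.5 in group means that changed sign in this way were the GS TE of Slc17a7 (−1.03 to 1.44), the GS/DA RNA-Seq changes of Slc17a7 (−0.17 to 2.71) and Neurod6 (−0.58 to 2.54), the KO RNA-Seq changes of Tbr1 (−1.75 to 0.40) and Mef2c (−1.27 to 0.13), and the KO TE of Tbr1 (−0.022 to 1.41), Mef2c (−0.30 to 1.27) and Rorb (−0.21 to 1.44). Values under 0.5 changed sign as well and are not listed here. The cause was not tested. The ranges of Slc17a7 and Neurod6 in GS/DA and of Tbr1 in KO RNA-Seq pair libraries that do not share the library difference. Those of Mef2c and Rorb in KO come from pairs that share it. The GS TE range of Slc17a7 and the KO TE range of Tbr1 come from leaving out 1 library. No paired analysis was possible because the columns carry no replicate numbers to pair by. The changes within pairs join libraries by their values and are given as description.

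Depth sets a limit for the members of low level. Neurod6, Cux2, Neurod2 and Rorb had group means of 102 to 248 normalized footprint reads, in 2 libraries per group where libraries were recovered, which limits the precision of their changes. The GS control has no spread, so no GS change can be set against the variation of its controls. Neurod2 and Rorb have no value in the transgenic tables, where transcripts of low read counts were left out.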
